A study of Homo sapiens with 8 samples.

Results

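Protocadherins and cadherins are calcium-dependent adhesion proteins of the cell surface, and 10 of them were followed here in brain-metastatic breast carcinoma cells grown with astrocytes. They were the rows of the deposited count table whose symbol was PCDH7, PCDH1, PCDH9, PCDH10, PCDH18, CDH2, CDH4, CDH6, CDH11 or CDH1, which gave 10 of 57445 genes. All 10 symbols were found, and 9 had enough reads to be tested. The samples were 8 libraries of MDA231-BrM2 cells, a line derived from MDA-MB-231 breast carcinoma cells by selection for growth in brain. The RNA sequenced was obtained by TRAP (translating ribosome affinity purification): beads coated with an antibody to GFP take tagged polysomes, and the RNA on them, out of a lysate.

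Each of the 4 groups held 2 libraries. Cells with hairpin 1 against connexin 43 (Cx43, encoded by GJA1) were grown with astrocytes, and so were cells with hairpin 2 against Cx43. Cells with a control hairpin were grown with astrocytes or alone. Cocultures lasted 24 h with 1 astrocyte per carcinoma cell, and every group carried a hairpin and used the same single line. The design had no Cx43-depleted cells grown alone, so an effect of the hairpins without astrocytes cannot be told apart from one that needs them. The labels call the 2 libraries of a group independent replicates but do not say whether they came from separate cultures, so p-values measure the spread between these libraries.

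Classical (type I) cadherins such as N-cadherin (CDH2) and E-cadherin (CDH1), and the related type II cadherins, bind the same kind of molecule on a neighbouring cell and are anchored to actin through catenins. Protocadherins have more extracellular repeats and no catenin-binding tail. The non-clustered delta-protocadherins act in neural cell recognition, where delta-1 members (PCDH1, PCDH7, PCDH9) carry a tail motif that binds protein phosphatase 1 and delta-2 members (PCDH10, PCDH17, PCDH18, PCDH19) bind the WAVE actin regulator complex. In brain metastatic carcinoma cells, PCDH7 is known as the protein that joins them to astrocytes so that Cx43 gap junction channels can form. The 4-group design therefore asks how far the RNA of PCDH7 and its relatives on carcinoma ribosomes differed with astrocyte contact and with the loss of Cx43.

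Reads counted in genes ranged from 38219702 to 48997555 per library, so a floor of 3 counts equals 0.0612 to 0.0785 CPM. Levels are CPM, a gene's reads scaled to a common library size after TMM correction, and changes are log2 fold changes from edgeR's quasi-likelihood test with Benjamini-Hochberg adjustment over 15806 genes, called at an adjusted p of at most 0.05. GJA1, the hairpin target, read 27.8 and 27.8 CPM with hairpin 1 and 31.7 and 33.8 CPM with hairpin 2, against 65.9 and 64.6 CPM in control cocultures. It fell by 1.11 on the log2 scale over both hairpins (edgeR adjusted p = 7.89e-06). The labels name Cx43 as the target of both hairpins. The carcinoma line markers summed to 4686 to 5234 CPM in hairpin cocultures, 5547 and 5835 CPM in control cocultures, and 4969 and 5377 CPM in control cells alone. All 14 of these markers, VIM, CD44 and EGFR among them, passed the count filter. ESR1, of the same list, did so with only 10 to 23 reads per library.

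The upstream sequences of 3 protocadherins that read higher in both control cocultures than in both libraries of control cells alone are shown first. They are PCDH7, PCDH18 and PCDH17, the last from the list of other non-clustered protocadherins. Of all tested genes 30% were higher in this way. Among them are protocadherins not shown, such as PCDH20 (0.591 and 0.349 CPM in control cocultures, 0.188 and 0.270 CPM in control cells alone). Each is the 250 bases before the gene's annotated start in RefSeq (build GRCh38.p14), written 5′ to 3′ on the gene's strand. PCDH7 lies at chr4:30720119-30720368 on the plus strand, PCDH18 at chr4:137532495-137532744 on the minus strand, and PCDH17 at chr13:57631494-57631743 on the plus strand. Capitals mark the 1 match to a searched motif.

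PCDH7: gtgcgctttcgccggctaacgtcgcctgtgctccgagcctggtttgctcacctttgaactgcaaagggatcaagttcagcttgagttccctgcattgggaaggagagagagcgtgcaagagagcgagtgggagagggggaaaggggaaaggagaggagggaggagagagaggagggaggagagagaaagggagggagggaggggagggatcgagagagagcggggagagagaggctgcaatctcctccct
PCDH18: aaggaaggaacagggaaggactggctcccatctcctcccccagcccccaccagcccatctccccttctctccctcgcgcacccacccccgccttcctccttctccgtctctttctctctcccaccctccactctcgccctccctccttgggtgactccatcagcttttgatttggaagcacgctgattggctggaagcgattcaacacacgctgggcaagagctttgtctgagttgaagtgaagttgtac
PCDH17: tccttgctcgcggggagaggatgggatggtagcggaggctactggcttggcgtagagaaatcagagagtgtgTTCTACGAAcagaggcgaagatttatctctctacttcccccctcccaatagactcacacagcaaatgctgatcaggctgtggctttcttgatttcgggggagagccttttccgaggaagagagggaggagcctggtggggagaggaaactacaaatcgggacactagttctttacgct

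GC content was 59.6% for PCDH7, 58.4% for PCDH18 and 52.8% for PCDH17. Both strands were searched for 4 motifs. TTCNNNGAA, the core bound by STAT dimers, was in 6.56% of 34943 RefSeq windows and matched PCDH17 alone among the windows searched, in the stretch in capitals. The core of interferon-stimulated response elements, read as GAAA, any 2 bases and GAAA, was in 3.02% of windows and in none of these. The NF-kB motif was in 5.20% of windows and in none of these. CACCTG, an E-box of the kind bound by SNAI and ZEB repressors, was in 17.5% of windows and among members in those of PCDH1 and CDH4. RefSeq windows matched 6 of the 10 members. A match is a string of letters and not a measured binding site.

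PCDH7 was higher in all 6 coculture libraries than in both libraries of control cells alone, and its level did not separate the Cx43 hairpins from the control hairpin. PCDH7 (ENSG00000169851.11) read 8.46 and 10.3 CPM with hairpin 1, 10.8 and 9.80 CPM with hairpin 2 and 10.5 and 9.15 CPM in control cocultures. It read 7.85 and 7.42 CPM in control cells alone, the lowest values of the 8. The means were 9.37 ± 1.29, 10.3 ± 0.706, 9.82 ± 0.946 and 7.64 ± 0.306 CPM for hairpin 1, hairpin 2, control coculture and control alone (SD, n = 2 each). The 3 coculture groups overlapped one another, and none overlapped control cells alone.

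With hairpins and astrocytes against control cells alone, PCDH7 rose 1.29-fold, a log2 change of 0.36 (SE 0.105, 95% interval 0.12 to 0.60, edgeR adjusted p = 0.0467). In control cocultures against control cells alone the log2 change was also 0.36 (SE 0.121, interval 0.09 to 0.64), with an edgeR adjusted p of 0.0914 that missed the threshold. Between both hairpins and the control coculture the log2 change was -0.00045 (SE 0.104, interval -0.24 to 0.23, edgeR adjusted p = 0.999), so these libraries limit any change to about that interval. Hairpin 1 alone gave -0.07 (edgeR adjusted p = 0.762), hairpin 2 alone 0.07 (0.814), and hairpin 2 against hairpin 1 0.14 (0.769). The call against control cells alone was close to the threshold. It was lost without hairpin 1 library 2 (0.29, adjusted p = 0.0703), hairpin 2 library 1 (0.33, 0.126) or library 2 (0.40, 0.0974), or control alone library 1 (0.39, 0.149) or library 2 (0.31, 0.230), and the change in control cocultures was called without either library of hairpin 1 (0.36 both times, adjusted p = 0.0397 and 0.0399).

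The pull-down comes from pooled cells, so fewer cells of a type and less RNA per cell cannot be told apart, nor can mRNA amount and ribosome loading. Astrocyte markers were higher in coculture as a sum. The summed level of 15 genes, GJA1 left out, was 61.1 to 75.5 CPM in hairpin cocultures, 72.9 and 75.0 CPM in control cocultures and 54.4 and 59.0 CPM in control cells alone. No gene of that list was at 0 in every library, and 6 of the 15 fell below a mean count of 10. GFAP, the astrocyte intermediate filament, read 11.7 to 16.9 CPM in hairpin cocultures, 12.8 and 13.8 CPM in control cocultures and 8.52 and 8.79 CPM in control cells alone. FGFR3, of the same list, read 1.88 and 1.80 CPM in control cocultures, against 2.23 and 2.43 CPM in control cells alone. Of 10 tested markers, GJA1 included, 4 rose and 0 fell in control cocultures, beside 8.74% and 2.93% of all tested genes. There 7 changes were above 0 and 3 below. For the hairpins against control cells alone 6 were above 0 and 4 below, with a median of 0.05. The part of astrocyte RNA in the rise of PCDH7 and of the other genes higher in coculture was not tested.

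**Figure D1:**
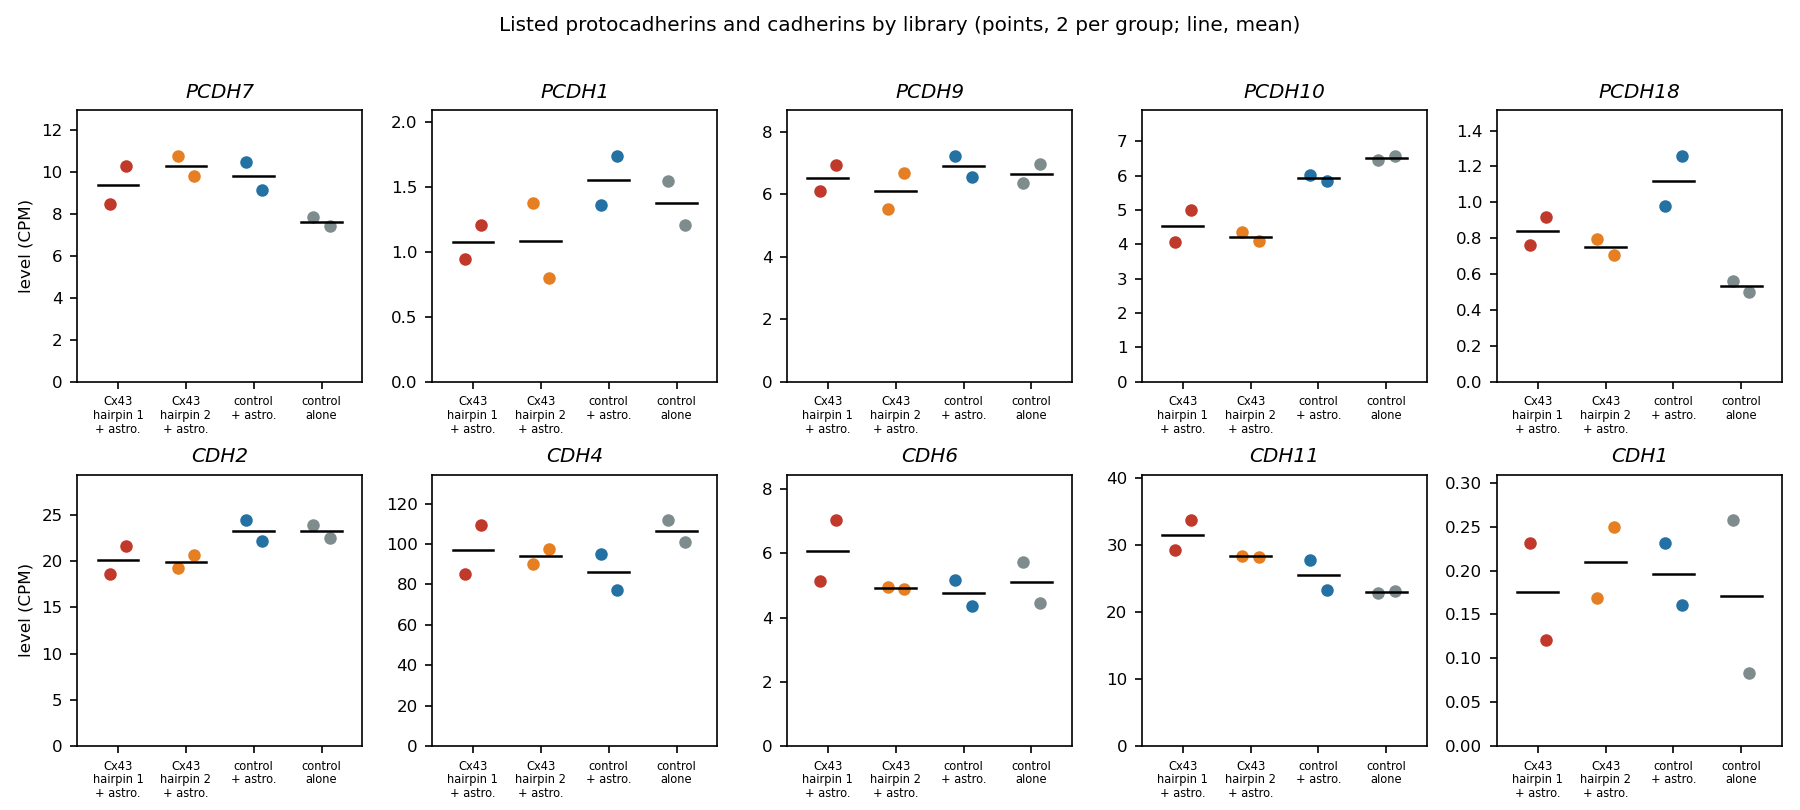
Levels in CPM (y axis) of the 10 genes in each library, by group: Cx43 hairpin 1 with astrocytes, Cx43 hairpin 2 with astrocytes, control hairpin with astrocytes, control hairpin alone. Points are the 2 libraries of a group and the line is their mean; PCDH7 lies above 8 CPM in all 6 cocultures and below 8 CPM in both libraries of control cells alone.

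The other delta-1 protocadherins did not pass the test in any comparison. PCDH9 (ENSG00000184226.10), a protocadherin of developing cortex, read 6.10 and 6.95 CPM with hairpin 1, 5.52 and 6.68 CPM with hairpin 2, 7.25 and 6.54 CPM in control cocultures, and 6.35 and 6.98 CPM in control cells alone. All 4 groups overlapped. Its log2 change was 0.05 in control cocultures against control cells alone (edgeR adjusted p = 0.843) and -0.13 for the hairpins against the control coculture (0.519). PCDH1 (ENSG00000156453.9), found in airway epithelium and endothelium, read 0.948 and 1.21 CPM with hairpin 1 and 1.37 and 0.796 CPM with hairpin 2, against 1.36 and 1.74 CPM in control cocultures and 1.55 and 1.21 CPM in control cells alone. Libraries of a group differed by as much as the groups did, and the hairpin change was -0.52 with an interval of -1.08 to 0.03 (edgeR adjusted p = 0.217).

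The delta-2 members, PCDH18 and PCDH10, were each called in a comparison. PCDH18 rose 2.10-fold in control cocultures, where 8.74% of all tested genes rose. PCDH10 fell by 0.44 on the log2 scale with Cx43 depletion, where 5.85% of all tested genes fell. In all 6 cocultures PCDH18 was above control cells alone and PCDH10 below, beside 16.1% and 12.2% of all tested genes. PCDH18 (ENSG00000189184.7) read 0.763 and 0.917 CPM with hairpin 1, 0.795 and 0.705 CPM with hairpin 2, 0.977 and 1.26 CPM in control cocultures and 0.563 and 0.499 CPM in control cells alone. Its values fell into the order control coculture, hairpins, control alone with no overlap between these 3 sets. It is a low gene, with 24 to 47 reads per library. The rise in control cocultures was 1.07 (SE 0.234, interval 0.54 to 1.60, edgeR adjusted p = 0.0203), and DESeq2 gave 1.07 with an adjusted p of 0.0552. It was lost without control coculture library 2 (0.86, adjusted p = 0.112) or control alone library 1 (1.14, 0.0818) or library 2 (0.98, 0.121). The hairpins against the control coculture gave -0.49 (interval -0.92 to -0.06, edgeR adjusted p = 0.143), which did not pass.

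PCDH10 (ENSG00000138650.6), a gene often silenced by methylation in carcinomas, read 4.07 and 4.99 CPM with hairpin 1 and 4.36 and 4.09 CPM with hairpin 2, against 6.01 and 5.85 CPM in control cocultures and 6.45 and 6.59 CPM in control cells alone. The 4 hairpin libraries all lay below the 4 others. PCDH10 fell by 0.44 with both hairpins against the control coculture (SE 0.103, interval -0.67 to -0.21, edgeR adjusted p = 0.0342), with -0.39 for hairpin 1 (0.0836) and -0.49 for hairpin 2 (0.0623), neither called alone. Hairpin 2 was called without either library of hairpin 1 (-0.49 both times, 0.0283 and 0.0286), with no count filter (-0.48, 0.0186), with the compared groups only (-0.49, 0.0388) and with an exon length offset (-0.49, 0.0320), and hairpin 1 with that offset (-0.45, 0.0336). Against control cells alone it fell by 0.58 with hairpins and astrocytes (SE 0.0993, edgeR adjusted p = 0.00781), and in control cocultures it changed by -0.14 (0.485). The depletion call was lost without hairpin 2 library 1 (-0.46, adjusted p = 0.0881) or library 2 (-0.42, 0.131), control coculture library 1 (-0.42, 0.156) or library 2 (-0.45, 0.160), or control alone library 1 (-0.44, 0.0579) or library 2 (-0.44, 0.0517). The fall against control cells alone had an adjusted p of 0.0536 without control alone library 1 (-0.60) and 0.0532 without library 2 (-0.57).

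Among the classical and type II cadherins, CDH11 rose with hairpins and astrocytes against control cells alone, while CDH2, CDH4 and CDH6 were not called in any comparison of all 8 libraries with the count filter. CDH11 (ENSG00000140937.9), a mesenchymal cadherin of osteoblasts also studied in bone metastasis, read 29.2 and 33.8 CPM with hairpin 1 and 28.4 and 28.3 CPM with hairpin 2, against 27.8 and 23.4 CPM in control cocultures and 22.8 and 23.2 CPM in control cells alone. The 4 hairpin libraries were higher than the 4 others, and the control cocultures, though lower than those, did not overlap control cells alone. CDH11 rose 1.30-fold against control cells alone, a log2 change of 0.38 (SE 0.0883, interval 0.18 to 0.58, edgeR adjusted p = 0.0225). The change was 0.15 in control cocultures against control cells alone (adjusted p = 0.370) and 0.23 for the hairpins against the control coculture (interval 0.02 to 0.43, 0.149). The call was lost without hairpin 2 library 1 (0.38, 0.0676) or library 2 (0.38, 0.0801), or control alone library 1 (0.36, 0.132) or library 2 (0.38, 0.110). Without hairpin 1 library 1 the hairpin change against the control coculture was called (0.28, 0.0448). For hairpin 1 alone it was 0.30 (0.104), called without that library (0.41, 0.0297) or with no count filter (0.31, 0.0376). Fibroblast matrix genes, another mesenchymal set, summed to 456 to 532 CPM in hairpin cocultures, 789 and 845 CPM in control cocultures and 696 and 1105 CPM in control cells alone. COL1A1 by itself read 336 to 402, 602 and 654, and 517 and 832 CPM in the same order. With hairpins and astrocytes against control cells alone 4 of 9 tested genes of this set fell, beside 6.34% of all tested genes. In the same comparison 1 rose, beside 10.8%: PDGFRB by 0.74 (edgeR adjusted p = 0.00248). For the hairpins against the control coculture 5 fell and 0 rose, beside 5.85% and 3.37%, and all 9 changes were below 0. In control cocultures against control cells alone 3 rose and 0 fell, beside 8.74% and 2.93%, with 4 changes above 0 and 5 below.

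N-cadherin, CDH2 (ENSG00000170558.4), the classical cadherin of neural and mesenchymal cells, read 18.7 and 21.7 CPM with hairpin 1 and 19.2 and 20.7 CPM with hairpin 2, against 24.5 and 22.2 CPM in control cocultures and 23.9 and 22.6 CPM in control cells alone. Hairpin libraries were lower than both control sets without overlap. The hairpin change was -0.22 (interval -0.41 to -0.03) with an edgeR adjusted p of 0.139 (called without hairpin 1 library 2, -0.28, 0.0417), the change against control cells alone was -0.21 (0.107, called without the same library, -0.27, 0.0340), and the coculture change in control cells was 0.01 (0.975). R-cadherin, CDH4 (ENSG00000179242.11), first studied in retina, was 77.4 to 112 CPM over all libraries: 85.0 and 110 CPM with hairpin 1, 90.3 and 97.6 CPM with hairpin 2, 95.1 and 77.4 CPM in control cocultures, and 112 and 101 CPM in control cells alone. Its change in control cocultures was -0.30 (interval -0.61 to 0.00, edgeR adjusted p = 0.186), which was called when no count filter was used (-0.32, 0.00889). CDH6 (ENSG00000113361.8), K-cadherin of kidney, read 5.13 and 7.05 CPM with hairpin 1, 4.94 and 4.89 CPM with hairpin 2, 5.17 and 4.37 CPM in control cocultures and 5.72 and 4.47 CPM in control cells alone. Both hairpin 1 libraries were above both hairpin 2 libraries, and the other pairs of groups overlapped. Its change for hairpin 1 against the control coculture was 0.35 (adjusted p = 0.260) and was called without hairpin 1 library 1 (0.57, 0.0486).

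E-cadherin, CDH1 (ENSG00000039068.14), the adhesion protein lost in mesenchymal carcinoma lines, was close to the floor in every library. It had 10 and 5 reads with hairpin 1, 7 and 11 with hairpin 2, 9 and 6 in control cocultures, and 11 and 4 in control cells alone. The exact 95% Poisson interval of the control alone libraries ran from 0.0222 to 0.209 CPM for the library with 4 reads and from 0.128 to 0.460 CPM for the library with 11, and covers counting error only. Its mean count of 7.88 was below the filter of 10, so it was not tested. A fit without the filter gave a change of 0.23 in control cocultures (edgeR adjusted p = 0.933) and of -0.02 for the hairpins (1.00). No difference was detectable at this depth.

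**Figure D2:**
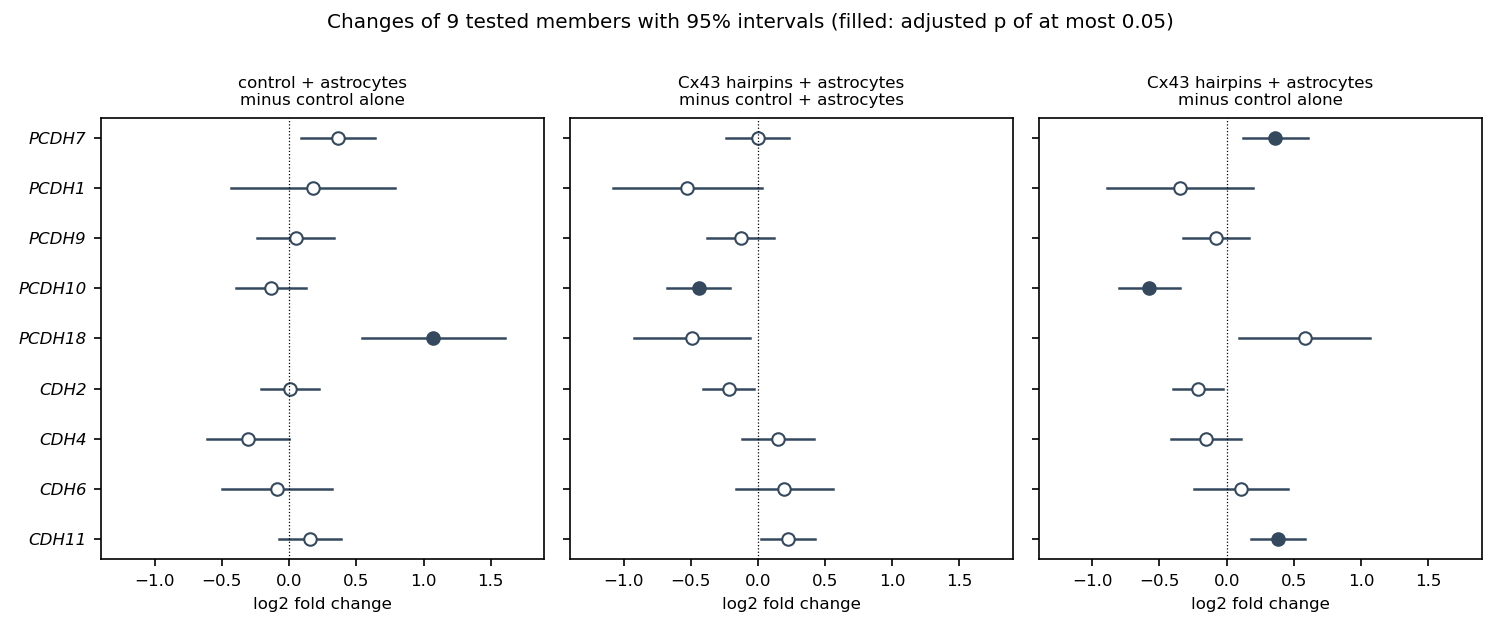
Log2 fold changes (x axis) with 95% intervals of the 9 tested genes in control cocultures against control cells alone, hairpin cocultures against control cocultures, and hairpin cocultures against control cells alone. Filled points passed an adjusted p of 0.05: PCDH18 in the first comparison, PCDH10 in the second, and PCDH7, PCDH10 and CDH11 in the third.

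The counts of called members are given beside the share of all tested genes called in the same comparison. In control cocultures against control cells alone 1 of the 9 tested members was called, PCDH18, higher, where 11.7% of all tested genes were called, 8.74% higher and 2.93% lower; 2 members had an unadjusted p under 0.05 and DESeq2 called 0. For the hairpins against the control coculture 1 member was called, PCDH10, lower, where 9.22% of genes were called, 3.37% higher and 5.85% lower. In both comparisons the members' share was near that of all genes. With hairpins and astrocytes against control cells alone 2 rose and 1 fell, where 17.1% of genes were called, 10.8% higher and 6.34% lower. With edgeR, hairpin 1 alone and hairpin 2 alone each called 0 members, where 7.82% and 4.16% of genes were called, with 2 and 3 members at an unadjusted p under 0.05 and 0 called by DESeq2 in either. Hairpin 2 against hairpin 1 called 0 members with edgeR, 0 with DESeq2 and 0 at an unadjusted p under 0.05, where 0.0316% of genes were called.

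The median change of the 9 was 0.05 in control cocultures, -0.13 for the hairpins against control cocultures and -0.08 for the hairpins against control cells alone. Over all tested genes the medians were -0.0026, -0.0080 and -0.0021. In the 6 coculture libraries against the 2 of control cells alone, 3 members were higher without overlap (PCDH7, PCDH18, CDH11), beside 16.1% of all genes, and 1 was lower (PCDH10), beside 12.2%. In the 2 control cocultures alone against those 2 libraries, 3 were higher (the same genes), beside 30% of all genes, and 2 were lower (PCDH10, CDH4), beside 26.3%. In the 4 hairpin libraries against the 2 control cocultures, 1 was higher (CDH11), beside 16.4%, and 3 were lower (PCDH10, PCDH18, CDH2), beside 18.1%. All 10 members have more exon sequence than the median tested gene, 4950 to 30944 bases against 4720. In 9 of the 10 members library 2 of hairpin 1 was above library 1, where 52.2% of tested genes were, and this library also had the steepest rise of CPM with exon length, 0.0908 on the log2 scale per doubling of length against -0.0657 to 0.0337 in the others.

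Members could be compared with one another only per exon length. CDH4 was highest, with a mean of 13.1 CPM per kb over the 8 libraries (range 10.5 to 15.2), behind only CLSTN1 (22.1) and DSG2 (15.4) of 34 cadherin genes. These were the 10 members and 24 others that passed the count filter, with the clustered protocadherins left out. The range of DSG2 (14.5 to 16.1) overlapped that of CDH4. Among members CDH2 followed CDH4 at 4.38 CPM per kb (3.77 to 4.95) and CDH11 at 2.03 (1.71 to 2.53), with no overlap from one to the next. PCDH7 was the highest of the 5 listed protocadherins at 0.758 CPM per kb (0.606 to 0.881). The ranges of PCDH7, PCDH10 (0.522, range 0.400 to 0.649) and CDH6 (0.421, 0.353 to 0.569) overlapped in neighbouring pairs, as did those of PCDH1 (0.216) and PCDH9 (0.212). PCDH18 stood at 0.121 CPM per kb and CDH1, which was below the filter, at 0.0304. Lengths are of all annotated exons in GENCODE 29, so a gene that uses few of its exons reads too low.

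**Figure D3:**
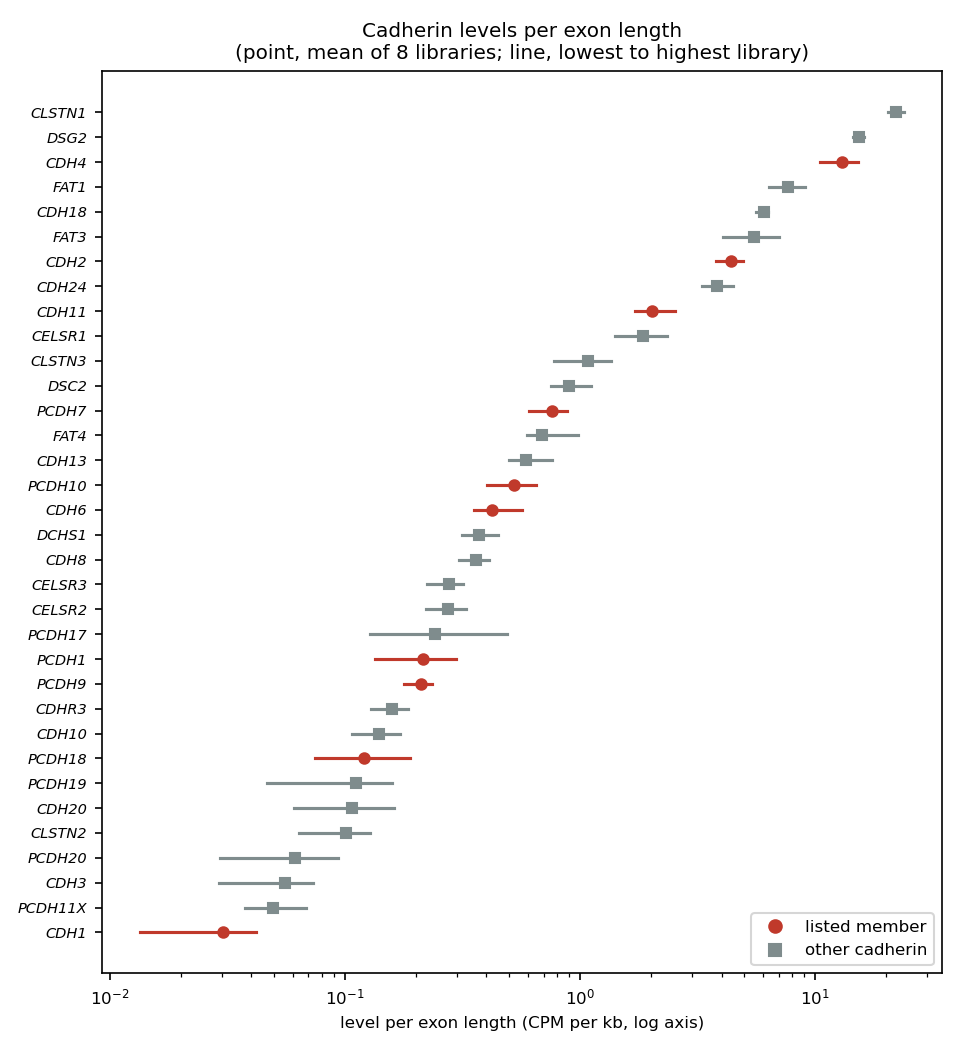
Level per exon length (CPM per kb, log axis) of the 10 members and 24 other cadherin genes that passed the count filter, clustered protocadherins left out. Points are means of 8 libraries and lines run from the lowest to the highest library. The 10 listed genes are marked and run from CDH4 at 13.1 CPM per kb to CDH1 at 0.0304.

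Other genes of the cadherin superfamily were counted from lists. Over all tested genes 8.74% rose and 2.93% fell in control cocultures, and 3.37% rose and 5.85% fell with the hairpins. With hairpins and astrocytes against control cells alone 10.8% rose and 6.34% fell. Of 7 other non-clustered protocadherins 4 were tested, and PCDH17 rose in control cocultures. PCDH17, a delta-2 protocadherin of brain circuits, read 1.25 and 1.88 CPM with hairpin 1 and 1.59 and 1.30 CPM with hairpin 2, against 4.09 and 3.81 CPM in control cocultures and 1.10 and 1.06 CPM in control cells alone. Only the control coculture libraries were high. It rose by 1.87 in control cocultures (edgeR adjusted p = 0.000564) and fell by 1.40 with the hairpins (0.00139), and both calls held in each of the 8 fits that left out a library. PCDH19, mutated in an epilepsy syndrome, read 1.53 and 1.54 CPM with hairpin 1 and 1.37 and 1.41 CPM with hairpin 2, against 1.05 and 0.456 CPM in control cocultures and 0.656 and 0.665 CPM in control cells alone. It rose by 1.14 with the hairpins against control cells alone (0.0215), a call lost without hairpin 2 library 1 (1.15, 0.0598) or library 2 (1.13, 0.0765), or control alone library 1 (1.12, 0.117) or library 2 (1.14, 0.121). Neuron markers, 10 genes, summed to 24.0 to 25.4 CPM in hairpin cocultures and 32.6 and 33.2 CPM in control cocultures. In control cells alone they summed to 25.9 and 27.0 CPM. Of 7 tested, 1 rose in control cocultures, MAP2, by 1.02 (edgeR adjusted p = 0.000164), and 0 fell. There 4 changes were above 0 and 3 below, so the higher sum was not a rise shared by the list. With the hairpins 1 fell, again MAP2, by 0.82 (0.000291), with 1 change above 0 and 6 below. The part of these markers in the values of PCDH17 was not tested.

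Of the FAT, Dachsous and Flamingo cadherins, large adhesion proteins of planar polarity, 7 of 9 were tested. FAT3 and FAT4 fell in control cocultures and FAT3 rose with the hairpins. FAT3 read 101 and 114 CPM with hairpin 1 and 100 and 105 CPM with hairpin 2, against 83.3 and 78.2 CPM in control cocultures and 136 and 130 CPM in control cells alone. Control cocultures were lowest and control cells alone highest, with no overlap. Its change was -0.72 in control cocultures (edgeR adjusted p = 0.000566), a call held in all 8 such fits. With the hairpins it was 0.38 (0.0127), lost without hairpin 2 library 2 (0.36, 0.0689) or control coculture library 1 (0.42, 0.0534) or library 2 (0.34, 0.108). FAT4 read 10.3 and 11.6 CPM with hairpin 1 and 10.1 and 10.6 CPM with hairpin 2, against 9.92 and 9.74 CPM in control cocultures and 16.1 and 12.7 CPM in control cells alone. It fell by 0.55 in control cocultures (0.0215), lost without control coculture library 1 (-0.56, 0.101) or library 2 (-0.55, 0.0759) or control alone library 1 (-0.38, 0.0977).

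Of 14 atypical cadherins 5 were tested. CLSTN3, a calsyntenin of synapses, read 9.12 and 9.36 CPM in control cocultures, against 6.99 and 5.34 CPM in control cells alone. It rose by 0.59 (edgeR adjusted p = 0.0252), lost without control coculture library 1 (0.61, 0.100) or library 2 (0.55, 0.0996) or control alone library 2 (0.39, 0.142). CDH13, the membrane-anchored T-cadherin, read 5.59 and 5.79 CPM with hairpin 1 and 5.98 and 5.61 CPM with hairpin 2, against 8.51 and 7.43 CPM in control cocultures. It fell by 0.47 (0.0143), lost without hairpin 2 library 2 (-0.45, 0.0724) or control coculture library 1 (-0.37, 0.124). Of 7 desmosomal cadherins 2 were tested, and DSC2 read 13.9 and 12.5 CPM in control cocultures, against 10.1 and 9.38 CPM in control cells alone. It rose by 0.44 (0.0130), lost without control coculture library 1 (0.36, 0.112) or control alone library 2 (0.38, 0.0886). With edgeR, 0 of 6 tested other classical and type II cadherins and 0 of 11 tested clustered protocadherins were called in control cocultures or with the hairpins. Of all tested genes 11.7% and 9.22% were called in these comparisons, so lists this small cannot show whether they respond less than other genes. In each comparison 0 and 1 had an unadjusted p under 0.05, and DESeq2 called 0.

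**Figure D4:**
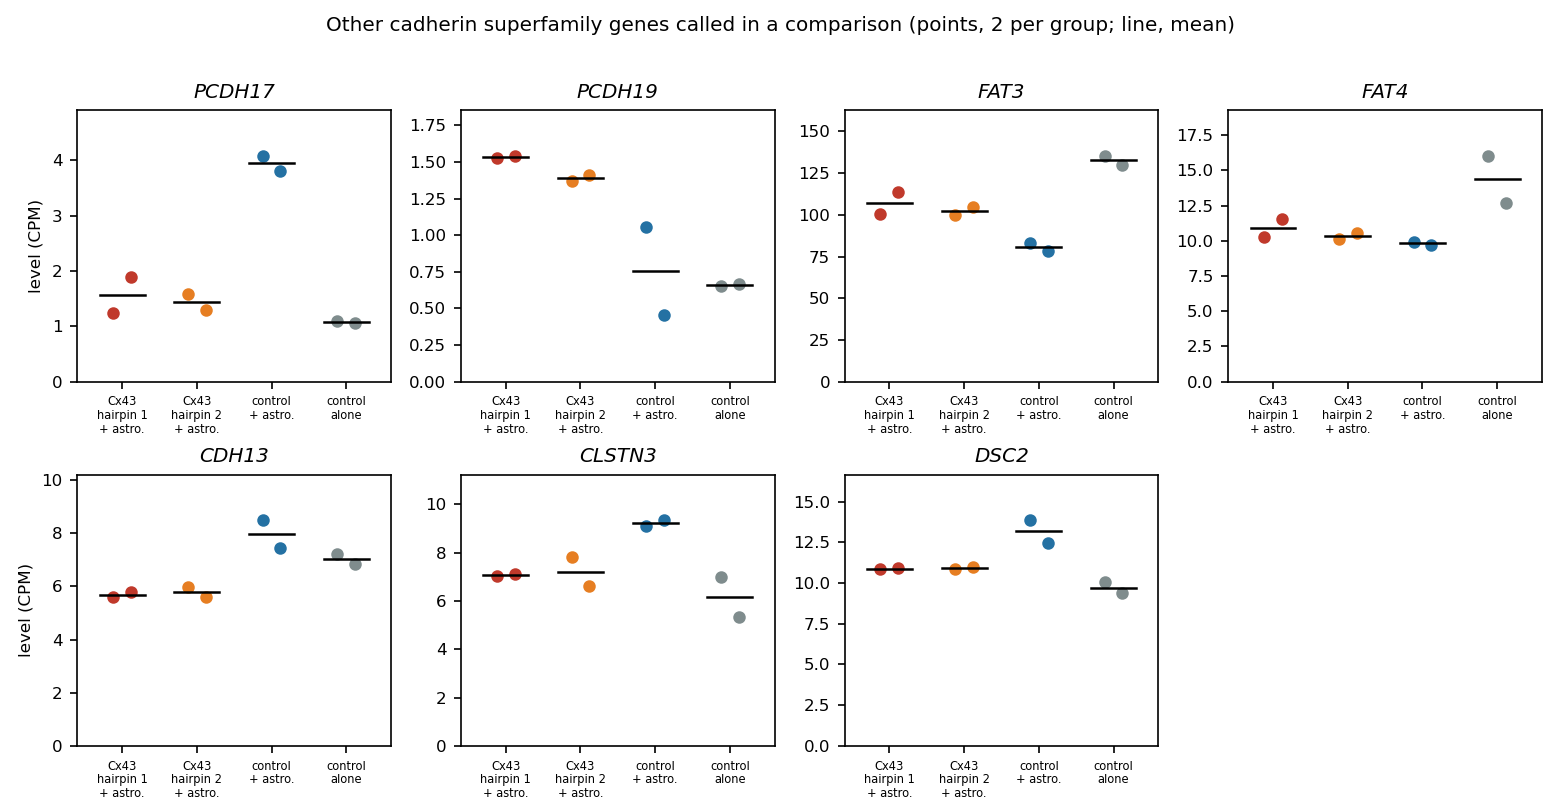
Levels in CPM (y axis) of 7 other cadherin genes called in a comparison, by group: Cx43 hairpin 1 with astrocytes, Cx43 hairpin 2 with astrocytes, control hairpin with astrocytes, control hairpin alone. Points are libraries and the line is their mean; PCDH17 reads 3.81 and 4.09 CPM in control cocultures and below 2 CPM in the 6 other libraries.

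Partners and regulators of the members were read from 3 more lists. The list of catenins and armadillo proteins holds the linkers of classical cadherins to actin and desmosomes to filaments, and related genes. Of its 14 tested genes 0 rose and 2 fell in control cocultures, beside 8.74% of all tested genes that rose and 2.93% that fell. CTNNAL1 fell by 0.48 (edgeR adjusted p = 0.00178) and PKP2 by 0.46 (0.00490). With the hairpins 0 rose and 2 fell, beside 3.37% and 5.85% of all tested genes. JUP, plakoglobin, fell by 0.63 (0.0325) and CTNNA1, alpha-catenin, by 0.20 (0.04996). Of 13 tested delta-protocadherin partners, such as the phosphatase 1 and WAVE complex genes, FZD7 fell by 0.30 in control cocultures (0.0417) and PPP2R1A fell by 0.22 with the hairpins (0.0420). The JUP call was lost without any 1 library of hairpin 2 or of the control coculture (-0.65 to -0.62, adjusted p of 0.0908 to 0.173). The calls of CTNNA1 (-0.23 to -0.17, 0.0724 to 0.236), FZD7 (-0.34 to -0.27, 0.0905 to 0.138) and PPP2R1A (-0.22 to -0.21, 0.0611 to 0.193) were lost without any 1 library other than those of hairpin 1. All 3 were also lost with library totals (adjusted p of 0.118 for CTNNA1, 0.0527 for FZD7 and 0.0982 for PPP2R1A). CTNNA1 and PPP2R1A were lost with upper quartile factors (0.0574 and 0.0515), no count filter (0.0993 and 0.0785) and the compared groups only (0.0716 and 0.0602).

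Regulators of cadherin genes and of cadherin cleavage rose in control cocultures in 5 of 15 tested cases, and 0 fell, beside 8.74% and 2.93% of all tested genes. DESeq2 called 3 of the 15. TCF4, a basic helix-loop-helix repressor of CDH1, rose by 1.03 (edgeR adjusted p = 0.000259) and held in all 8 fits. SNAI2, the Slug repressor of CDH1, read 179 and 161 CPM with hairpin 1 and 188 and 189 CPM with hairpin 2, against 153 and 166 CPM in control cocultures and 110 and 116 CPM in control cells alone. It rose by 0.49 (0.00429), a call lost only without control alone library 1 (0.44, 0.0579). ZEB2 (0.31), SNAI1 (0.93) and ADAM10 (0.24), the last a protease that sheds cadherins, passed with adjusted p of 0.0236, 0.0399 and 0.0442. Without any 1 library other than those of hairpin 1, SNAI1 (0.77 to 1.06, 0.0667 to 0.194) and ADAM10 (0.21 to 0.24, 0.0970 to 0.227) were not called. Without any of these but control coculture library 2, ZEB2 was not called (0.24 to 0.32, 0.0593 to 0.188). ADAM10 was not called with library totals (0.0649), no count filter (0.125), DESeq2 (0.0625), the compared groups only (0.0750) or a length offset (0.111). SNAI1 was not called with DESeq2 (0.0651), nor ZEB2 with the compared groups only (0.0517) or the offset (0.119). With the hairpins 3 fell and 0 rose, beside 5.85% and 3.37% of all tested genes. TWIST1 fell by 0.53 (0.0204), TCF4 by 0.32 (0.0450) and FOXC2 by 0.55 (0.0475). The TWIST1 call was lost without hairpin 2 library 2 or either control coculture library (-0.57 to -0.46, 0.0806 to 0.159), that of TCF4 without any 1 library other than those of hairpin 1 (-0.37 to -0.27, 0.0631 to 0.208), and that of FOXC2 without any 1 library (-0.64 to -0.45, 0.0629 to 0.293). TCF4 and FOXC2 were also not called with upper quartile factors (0.0518 and 0.0505), library totals (0.0789 and 0.0576) or the compared groups only (0.0615 and 0.0718), nor FOXC2 with DESeq2 (0.0988). The median of the 15 was 0.22 in control cocultures and -0.08 with the hairpins.

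The genes nearest to PCDH7 in pattern over the 8 libraries were TRIOBP, PDXK, EBF1, UNC5B and BVES, with Pearson correlations of log2(CPM + 0.5) of 0.998, 0.974, 0.973, 0.973 and 0.963. With a pseudocount of 2, 4 of these 5 stayed among the nearest 5. For PCDH10 they were FGFR4 (0.989), LRRN4 (0.985) and SH3RF2 (0.971), for PCDH18 FHL3 (0.973), ZNF385A (0.962) and ABHD14B (0.961), and for CDH11 ARNT2 (0.989), SLC39A8 (0.988) and LEF1 (0.986). At the pseudocount of 2 DBP (0.960) and TMEM135 (0.958) replaced ZNF385A and ABHD14B for PCDH18, and the genes of PCDH10 and CDH11 stayed. These values are a description, since all genes of a library share its depth and scaling and high values turn up among many candidates.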

How the data were processed

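The submitters deposited a table of counts per gene for 8 libraries of MDA231-BrM2 RNA from ribosome pull-downs. Per the submitters' processing notes it came from TopHat2, HTSeq and DESeq2 on hg19, with no versions given; annotation, counting mode, strand setting and astrocyte species are not given in the sources used here. Its name calls the values normalized, yet all are whole and column totals differ, so they were used as unnormalized counts. Counter entries (5 per column) stayed out of the tests. Gene counts were 38219702 to 48997555 per library.

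In R 4.3.3, edgeR 4.0.16 (quasi-likelihood test, TMM, 4 group means, no covariates) was fitted to all 8 libraries over the 15806 genes whose mean count reached 10. Benjamini-Hochberg adjustment over these genes used a threshold of 0.05. DESeq2 1.42.0 was an alternative, as were other scalings and filters, fits of the compared groups only, each library left out and a replicate block. The fit was tested on simulated counts that had the same spread for all genes and no trends of whole libraries. That test does not show how calls hold where such trends exist. The common biological coefficient of variation was 7.66%. Replicates differed beyond counting error in each group, with chi-square per degree of freedom of 32.6 (hairpin 1), 4.22 (hairpin 2), 22.2 (control coculture) and 13.4 (control alone). Levels per kb used GENCODE 29 exon lengths. Named genes are all members, GJA1, up to 4 called genes per list and comparison with the smallest p, and the genes nearest in pattern. Members and lists were chosen with earlier results of these data known.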

Additional observations from a re-analysis of the deposited data

How the results depend on the processing

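Alternative values were taken for the members, GJA1 and the counts of genes. Of these, 966 stayed: changes kept their direction and side of the threshold, and counts stayed within 1.5 times. Changes that were called in neither fit are among the 966. Another 29 lost a call, 16 gained one, 49 changed sign and 57 counts moved by over 1.5 times.

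No low-count filter gave 2805 called genes for control cocultures against control alone (1844 as reported), 2269 for hairpin 1 (1236), 1191 for hairpin 2 (658), 304 for hairpin 2 against hairpin 1 (5) and 4117 for hairpins against control alone (2709). Fits of the compared groups only gave 236 for hairpin 1 and 2 for hairpin 2 against hairpin 1. That last comparison gave 3 with upper quartile factors, library totals or a mean count of 50, and 18 with DESeq2. An exon length offset, chosen after seeing the data, gave 10 there and 1074 for hairpin 2.

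Leaving out 1 library gave 738 to 2582 called genes for control cocultures, 281 to 2405 for hairpin 1, 150 to 1101 for hairpin 2, 343 to 2314 for both hairpins, 0 to 3 for hairpin 2 against hairpin 1 and 531 to 4717 for hairpins against control alone. The 0 came from edgeR without hairpin 2 library 1, with 358 genes at an unadjusted p under 0.05.

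PCDH7 in control cocultures was called with no filter (0.35, adjusted p = 0.0424), and PCDH18 there was not with DESeq2 (1.07). Under the length offset PCDH7 for hairpins against control alone was not called (0.27, 0.0544), and PCDH9 became -0.068 in control cocultures and 0.032 for hairpin 2 against hairpin 1. PCDH10 for both hairpins was not called with library totals (-0.40) or the compared groups only (-0.44). Changes near 0 turned sign: CDH2 in control cocultures was -0.0047 with DESeq2 factors, -0.00044 with totals, -0.0079 with no filter, -0.0022 at a mean count of 50, -0.0047 in DESeq2 and -0.0061 with the compared groups. PCDH7 for both hairpins was 0.0018 with DESeq2 factors, 0.0067 with upper quartile, 0.040 with totals, 0.0081 with no filter and 0.0022 in DESeq2. PCDH1 for hairpin 2 against hairpin 1 was -0.0035 with upper quartile and -0.019 with totals. The cause was not tested.

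With 1 library left out, PCDH7 ranged from 0.26 to 0.44 in control cocultures, -0.21 to 0.071 for hairpin 1, -0.015 to 0.17 for hairpin 2, -0.088 to 0.10 for both, -0.0049 to 0.28 between hairpins and 0.29 to 0.43 for hairpins against control alone. In control cocultures PCDH1 ranged from -0.025 to 0.35, PCDH9 from -0.031 to 0.11, PCDH18 from 0.86 to 1.25, CDH2 from -0.067 to 0.059 and CDH6 from -0.27 to 0.081. For hairpin 1, PCDH9 ranged from -0.18 to 0.015 and CDH4 from -0.020 to 0.35. For hairpin 2, CDH6 ranged from -0.060 to 0.17 and CDH4 from -0.0065 to 0.28. Between hairpins PCDH1 ranged from -0.43 to 0.35, PCDH9 from -0.24 to 0.035, PCDH10 from -0.25 to 0.052, CDH2 from -0.13 to 0.094 and CDH4 from -0.23 to 0.14. PCDH10 ranged from -0.52 to -0.37 for both hairpins and from -0.65 to -0.50 for hairpins against control alone, where CDH6 ranged from -0.074 to 0.28 and CDH11 from 0.32 to 0.43.

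Same-numbered libraries did not deviate together across all groups (correlations from -0.702 to 0.424 over 6 pairs of groups), so these values show no pairing common to the 4 groups. They cannot tell whether some of the groups were paired, because trends of whole libraries also enter them. The replicate block gave 1160 called genes for control cocultures, 446 for hairpin 1, 319 for hairpin 2, 700 for both hairpins, 1502 for hairpins against control alone and 0 for hairpin 2 against hairpin 1 with edgeR, with 728 there at an unadjusted p under 0.05. Under the block PCDH10 for both hairpins was -0.44 (adjusted p = 0.0753), and against control alone PCDH7 was 0.36 (0.0880) and CDH11 0.38 (0.0541). Of the listed partners, regulators and other cadherins, the block also ended the calls of FAT4, FZD7, ADAM10, SNAI1 and ZEB2 in control cocultures. For both hairpins it ended those of JUP, CTNNA1, PPP2R1A, TWIST1, TCF4 and FOXC2. PCDH7 for both hairpins was 0.0010 and PCDH1 between hairpins -4.3e-05.

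Depth limits CDH1 and PCDH18 most, and 2 libraries per group limit every call. All 10 members have more exon sequence than the median gene, and the part of the length trend in their changes was not tested beyond the offset.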
